A study of Mus musculus with 6 samples.

Results

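A set of 10 genes of the meiotic chromosome axis was examined in mouse embryonic stem (ES) cells with and without Dppa4, a gene for a chromatin-associated protein of pluripotent cells. They encode proteins of the synaptonemal complex and its axis (Syce1, Syce2, Tex12, Sycp1, Sycp2, Sycp3 and Hormad1) and subunits of meiotic cohesin (Stag3, Rec8 and Smc1b). The members were all probe sets whose platform gene symbol is exactly 1 of these names. That gave 10 probe sets, 1 for each of the 10 genes, of 45037 probe sets tested, and 0 further probe sets shared a member with another gene. The knockout group held 3 arrays of the Dppa4 knockout line CI#243.12, and the parental group 3 arrays of the line it was compared with, CI#84.2, which is hemizygous for Dppa4 and so has a single copy. Each group is thus 1 cell line, so an effect of losing Dppa4 cannot be told apart from other differences between the lines. Every culture of both lines held mouse embryonic fibroblast feeder cells. Values are log2 expression values after robust multi-array average (RMA) processing by the authors, and each change is given on that scale as the knockout mean minus the parental mean. Levels are compared between arrays for 1 probe set at a time. Exceptions are marker means, a background level taken from other probe sets, and differences between meiotic and somatic cohesin subunits formed within each array.

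The synaptonemal complex is the protein zipper that joins homologous chromosomes in the prophase of the first meiotic division. Its lateral elements run along each chromosome axis, its transverse filaments cross the gap, and its central element lies midway between the axes. The axes are built on cohesin, a ring that holds sister chromatids together and in which meiotic cells use germ line subunits in place of somatic ones. These genes are known for germ cell expression, and ES cells, which do not enter meiosis in culture, are known to transcribe some of them.

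Both lines carried the signal of ES cells and feeders. All 10 ES cell markers, Pou5f1 and Nanog among them, lay above the background level of 3.79, which is the 95th percentile of the means of 77 olfactory and vomeronasal receptor probe sets. Their mean ran from 10.88 to 10.97 over the parental and from 10.84 to 10.87 over the knockout arrays (exact permutation p = 0.1, two-sided, the smallest that 3 arrays against 3 can give). Nanog gave -0.49 (adjusted p = 0.122, limma) and Pou5f1 -0.06 (adjusted p = 0.852), both with all knockout values below all parental values. The mean of 9 feeder fibroblast markers ran from 11.33 to 11.44 and from 11.41 to 11.53 (exact permutation p = 0.2). Markers of later germ cells were mostly at background, with 2 of 8 oocyte genes and 3 of 8 spermatid genes above it. Their means ran from 3.62 to 3.77 and from 3.61 to 3.76 for oocyte genes, and from 3.63 to 3.68 and from 3.66 to 3.74 for spermatid genes. The targeted gene Dppa4 read 10.30, 10.35 and 10.45 in parental and 8.68, 8.84 and 8.68 in knockout arrays (1429597_at, adjusted p = 0.000112, limma); where its probes lie relative to the deletion is not known here. Over the whole table, members included, 181 probe sets passed the test, 150 lower and 31 higher in knockout cells.

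Of the 10 genes, 1 passed the test: Syce1 fell, 0 rose and 9 did not pass (limma, Benjamini-Hochberg adjusted p under 0.05 over the whole table). Over all probe sets 0.402% passed in either direction and 0.333% passed as lower in knockout cells. The median change of the 10 was -0.31, beside a median of 0 over all probe sets, and 8 had a negative and 2 a positive sign. At an unadjusted p under 0.05, 6 of the 10 were lower in knockout cells (Syce1, Hormad1, Smc1b, Sycp3, Sycp1 and Tex12) against 5.19% of all probe sets. In those 6, every knockout array also lay below every parental array, which held for 7.52% of all probe sets. Sycp1 and Tex12, counted among the 6, were below background on all arrays. A log2 change of -0.5 or lower was seen for 4 genes (Syce1, Hormad1, Smc1b and Sycp3) against 0.688% of all probe sets. Without Syce1, the median of the other 9 was -0.28, and their lowest adjusted p was 0.0654, for Hormad1. In a bulk culture, fewer cells with a transcript and less of it per cell cannot be told apart.

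**Figure D1:**
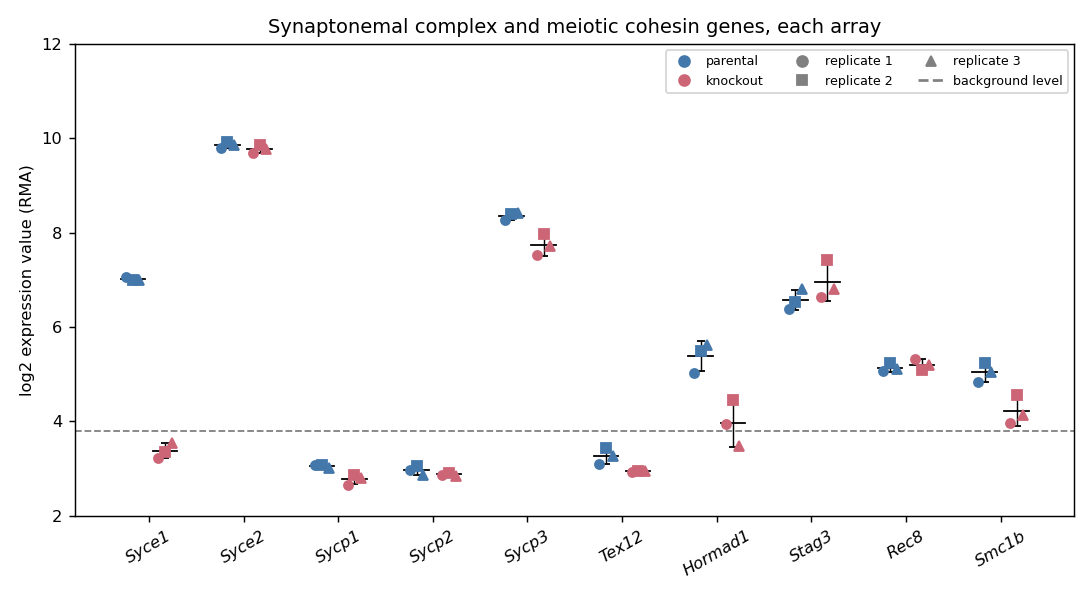
Log2 RMA value (vertical axis) of each of the 10 genes on each of the 6 arrays, parental in blue and knockout in red, with the marker shape giving the replicate number. Horizontal bars are group means, whiskers are 1 SD (n = 3), and the dashed line is the background level of 3.79. Syce1 drops from about 7.01 to below the dashed line, while Sycp1, Sycp2 and Tex12 lie under the line in both groups.

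Syce1, a protein of the central element that is needed for synapsis, fell with the lowest p-value of the whole table. The parental arrays read 7.05, 7.0 and 6.99 (probe set 1428685_at, chromosome 7), and the knockout arrays 3.23, 3.35 and 3.54. The parental arrays thus agreed closely, and all 3 knockout arrays lay at or below the background level. The log2 change was -3.64 (SE 0.09, 95% interval -3.85 to -3.43, adjusted p = 4.21e-06, limma). Since the knockout signal was not above background, it gives only a bound, and Syce1 was at least 9.31-fold lower, setting the parental mean against the knockout values raised to the background level. The call held under each alternative setting tried, with changes of -3.72 to -3.57 and adjusted p of 3.98e-07 to 0.000561.

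The other central element genes did not pass the test. Syce2, which forms fibres with Tex12 in the central element, read 9.79, 9.93 and 9.85 in parental and 9.69, 9.85 and 9.78 in knockout arrays (1429270_a_at). Its groups overlapped, and the change of -0.08 had a 95% interval of -0.27 to 0.10 (adjusted p = 0.811, limma), so a knockout signal under 83.2% of the parental signal lay outside the interval. Tex12 read 3.09, 3.43 and 3.27 in parental and 2.92, 2.95 and 2.94 in knockout arrays (1421183_at). All 6 Tex12 values were below background, so no fold is given, although the groups did not overlap (-0.33, adjusted p = 0.304).

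Six6os1, a central element gene outside the 10 and annotated on the array as 4930447C04Rik, gave -0.99 (adjusted p = 0.177) on 1431393_at and -0.68 (adjusted p = 0.212) on 1431896_at. On both of these probe sets all knockout values lay below all parental values. The knockout arrays read 3.78, 4.38 and 3.81 on 1431393_at, at or near background, which limits the fall that can be seen. On a further probe set, 1446260_at, Six6os1 was below background and gave -0.15. Syce3, another central element gene, gave -0.07 (adjusted p = 0.904), with group means of 3.96 and 3.89 close to background.

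Of the transverse filament and lateral element genes, Sycp3 was above background and Sycp1 and Sycp2 were not. Sycp1, the transverse filament protein, read 3.08, 3.08 and 3.01 in parental and 2.66, 2.86 and 2.80 in knockout arrays (1427291_at), all below background. The groups did not overlap, and the change was -0.28 (adjusted p = 0.285). Sycp2, a lateral element protein, read 2.96, 3.05 and 2.87 against 2.87, 2.91 and 2.85 (1444122_at), also below background, with overlapping groups (-0.08, adjusted p = 0.804). Neither Sycp1 nor Sycp2 was above background in either line, so no fold is given for them.

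Sycp3, the partner of Sycp2 in the lateral element and a common marker of meiotic axes, was above background on every array (1449534_at). The parental arrays read 8.26, 8.39 and 8.41 and the knockout arrays 7.52, 7.98 and 7.72, without overlap. The change was -0.61 (SE 0.12, 95% interval -0.89 to -0.34), which corresponds to 65.4% of the parental signal. It did not pass over the whole table (adjusted p = 0.102, limma).

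Hormad1, an axis protein that promotes double-strand break formation and marks axes that have not synapsed, had the next largest difference after Syce1. It read 5.02, 5.49 and 5.62 in parental arrays and 3.94, 4.46 and 3.47 in knockout arrays (1450292_a_at). The groups were separate, but the knockout arrays spread widely (SD 0.50, n = 3), and 1 of the 3 was below background. The change of -1.42 (SE 0.24, 95% interval -1.98 to -0.86) corresponds to 37.4% of the parental signal and did not pass (adjusted p = 0.0654, limma). Since part of the knockout signal was not above background, that percentage describes the signal and not the transcript left. Hormad2, the paralogue of Hormad1, gave 0.26 (adjusted p = 0.620), with overlapping groups.

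Among the meiotic cohesin subunits the signs differed. Smc1b, the meiotic form of the SMC1 arm of the ring, read 4.84, 5.24 and 5.05 in parental and 3.96, 4.56 and 4.13 in knockout arrays (1449253_at), all above background and without overlap. Its change was -0.83 (SE 0.16, 95% interval -1.20 to -0.46, adjusted p = 0.107, limma), or 56.4% of the parental signal. The lowest knockout value, 3.96, lay close to the background level of 3.79, so this percentage describes the signal and not the transcript left.

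Stag3, the meiotic STAG subunit, read 6.39, 6.52 and 6.80 in parental and 6.64, 7.42 and 6.80 in knockout arrays (1460229_at). These groups overlapped, and the value of 0.38 (SE 0.20, 95% interval -0.07 to 0.83, adjusted p = 0.601) rested largely on knockout replicate 2: without it the value was 0.15 (adjusted p = 0.729). Rec8, the meiotic kleisin that closes the ring, read 5.06, 5.24 and 5.10 against 5.33, 5.09 and 5.19 (1419147_at). The Rec8 groups overlapped as well, and the value of 0.07 had a 95% interval of -0.14 to 0.28 (adjusted p = 0.870, limma).

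**Figure D2:**
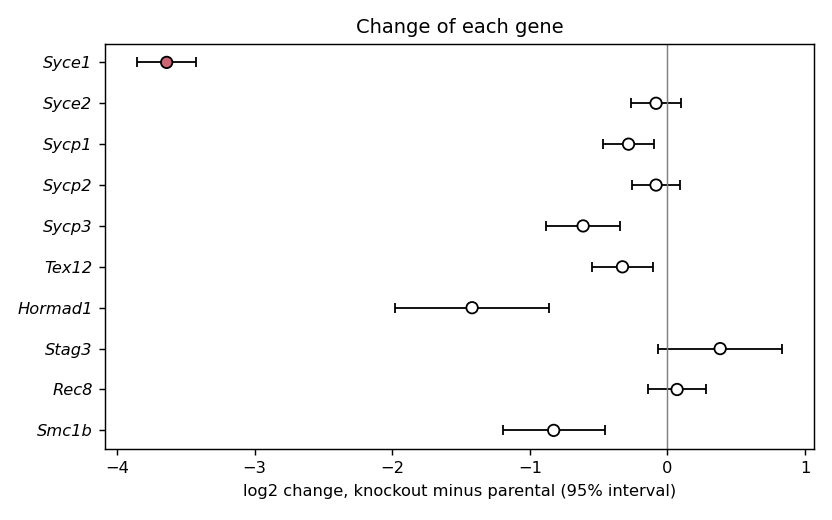
Log2 change, knockout minus parental (horizontal axis), of the 10 genes with the 95% interval of limma's fit over 3 against 3 arrays. The filled point has an adjusted p under 0.05 and the open points do not. Syce1 lies at -3.64, and Hormad1, Smc1b, Sycp3, Tex12 and Sycp1 have intervals below 0.

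The somatic subunits that these proteins replace in meiosis did not pass the test. Of 44 probe sets of 14 somatic cohesin genes and regulators, 0 passed (limma), and at an unadjusted p under 0.05, 1 was lower and 3 were higher; the count was 0 under every alternative as well. Their changes ran from -0.24 to 0.32 with a median of 0.00. On their probe sets with the highest mean, Smc1a, the somatic partner form of Smc1b, gave -0.12, Stag1 -0.08, Stag2 0.24 and Rad21, the somatic kleisin, 0.02. Stag2 was higher without overlap on both of its probe sets, 1421849_at (adjusted p = 0.288, limma) and 1450396_at (0.32, adjusted p = 0.246). These and 1428304_at of Esco2 were the 3 higher ones, and the lower one was 1434835_at of Wapl. The difference between a meiotic subunit and its somatic counterpart was also formed within each array, for 4 pairs. Smc1b minus Smc1a was lower by a log2 difference of -0.71 in knockout arrays, without overlap. Its exact permutation p of 0.1 was the smallest possible for 3 arrays against 3 and 0.4 when adjusted over the 4 pairs. The pairs of Stag3 with Stag1 (0.46) and with Stag2 (0.14), and of Rec8 with Rad21 (0.05), overlapped between the lines.

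Promoter sequence was compared because 6 of the 10 genes were separated in the same direction, Sycp1 and Tex12 among them with signal below background. RefSeq promoter windows of GRCm38.p6, from 250 bases before to 50 after the start, were found for all 10 genes, 12 windows in all. The E-box CACGTG, which the MAX partner MGA is known to bind, and TCCCGC, an E2F6-type motif, were searched on both strands. Both factors belong to a polycomb complex known to repress germ line genes in ES cells, and Smc1b and Stag3 are known targets of E2F6. CACGTG was present for 6 of the 10 genes (8.1% of 27025 genes in the table) and TCCCGC for 8 (22.0%). Both together in 1 window were present for 6 of the 10 (2.3% of genes), namely Syce2, Sycp1, Sycp3, Tex12, Hormad1 and Stag3. Syce1 and Sycp2 had neither, as did 72.5% of genes. Windows of the members held 10 to 33 CpG dinucleotides, beside a median of 7 over all promoters. Each motif itself contains a CpG, and the shares were not taken among promoters of like CpG content. They therefore do not show that the motifs are particular to these genes. The motifs were also chosen with earlier results of these data known. Of the genes with both motifs, Hormad1, Sycp3, Sycp1 and Tex12 were separated downward, while Syce2 and Stag3 overlapped between the lines. Sycp1 and Tex12 were below background on every array, which limits what their separation shows. Syce1, the gene that fell, had neither motif, and Smc1b, also separated downward, had only TCCCGC. Whether the motifs bear on the changes was not tested.

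The windows of the 4 genes with the largest negative values and of Stag3, with the largest positive value, are shown 5′ to 3′, so that the presence of the motifs can be read beside the changes. Capitals mark CACGTG and TCCCGC (or its reverse complement GCGGGA), and the remaining bases are in lower case. They lie at chr7:140787805-140788104, minus strand (Syce1), chr3:95559427-95559726, plus strand (Hormad1), chr15:85131908-85132207, minus strand (Smc1b), chr10:88459337-88459636, plus strand (Sycp3) and chr5:138280259-138280558, plus strand (Stag3).
Syce1: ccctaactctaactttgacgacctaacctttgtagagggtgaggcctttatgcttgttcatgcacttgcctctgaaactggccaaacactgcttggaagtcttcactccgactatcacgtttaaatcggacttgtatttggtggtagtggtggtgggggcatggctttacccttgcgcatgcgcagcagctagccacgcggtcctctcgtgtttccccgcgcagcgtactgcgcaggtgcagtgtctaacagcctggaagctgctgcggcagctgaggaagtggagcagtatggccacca
Hormad1: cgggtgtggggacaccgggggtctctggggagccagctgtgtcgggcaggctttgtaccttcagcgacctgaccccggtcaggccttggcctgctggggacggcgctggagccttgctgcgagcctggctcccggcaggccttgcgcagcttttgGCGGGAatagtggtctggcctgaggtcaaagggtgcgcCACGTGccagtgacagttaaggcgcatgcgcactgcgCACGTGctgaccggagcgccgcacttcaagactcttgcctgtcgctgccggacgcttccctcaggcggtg
Smc1b: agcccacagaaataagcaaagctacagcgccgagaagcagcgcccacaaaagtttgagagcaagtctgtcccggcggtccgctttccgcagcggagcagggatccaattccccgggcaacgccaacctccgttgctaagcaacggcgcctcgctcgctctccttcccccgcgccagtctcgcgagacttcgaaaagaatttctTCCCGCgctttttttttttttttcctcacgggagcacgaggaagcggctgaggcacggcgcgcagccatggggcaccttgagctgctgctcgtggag
Sycp3: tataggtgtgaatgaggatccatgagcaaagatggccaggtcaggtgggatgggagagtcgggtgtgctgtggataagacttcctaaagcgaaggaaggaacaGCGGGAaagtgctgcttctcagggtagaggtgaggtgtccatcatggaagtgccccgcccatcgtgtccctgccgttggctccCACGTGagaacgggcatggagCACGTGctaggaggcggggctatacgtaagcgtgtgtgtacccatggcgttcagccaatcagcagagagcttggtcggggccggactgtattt
Stag3: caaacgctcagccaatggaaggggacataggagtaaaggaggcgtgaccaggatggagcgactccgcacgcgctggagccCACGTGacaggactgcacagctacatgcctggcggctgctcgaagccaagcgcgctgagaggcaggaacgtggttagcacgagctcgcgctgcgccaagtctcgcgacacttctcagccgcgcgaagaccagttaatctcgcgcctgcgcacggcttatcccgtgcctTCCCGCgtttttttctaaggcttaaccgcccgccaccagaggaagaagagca
The Syce1 window holds 14 CpG dinucleotides and no capitals. In Hormad1 and Sycp3 a pair of E-boxes lies within the last 64 bases before the start, and Smc1b has only the E2F6-type letters, beginning 47 bases before the start. Stag3 has an E-box 170 bases before the start and the E2F6-type letters at the start itself.

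The neighbours of these genes on their chromosomes were compared as well, a check chosen after the values were seen. For each member the nearest 2 measured genes on either side were taken, 40 genes with 68 probe sets. Of these 0 passed (limma), and at an unadjusted p under 0.05, 5 were lower and 1 was higher. The changes of the 68 ran from -0.26 to 0.24. Over all probe sets 0.402% passed, and 5.19% were lower at an unadjusted p under 0.05, so few calls would be seen among 68 in any case. Beside Syce1, Cyp2e1 gave 0.03, Zfp941 gave -0.10 and -0.17, Urah gave -0.16 and -0.21, and 5830411N06Rik gave -0.26 (lowest adjusted p = 0.304). Most of these neighbours had little room to fall. The parental mean was 3.12 for Cyp2e1, below background, 4.05 for 5830411N06Rik, and 5.51 and 5.38 for Zfp941. Only Urah, at 8.65 and 8.52, lay far enough above background to show a fall as large as that of Syce1, and it did not. For the others the comparison cannot say whether they share the fall.

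**Figure D3:**
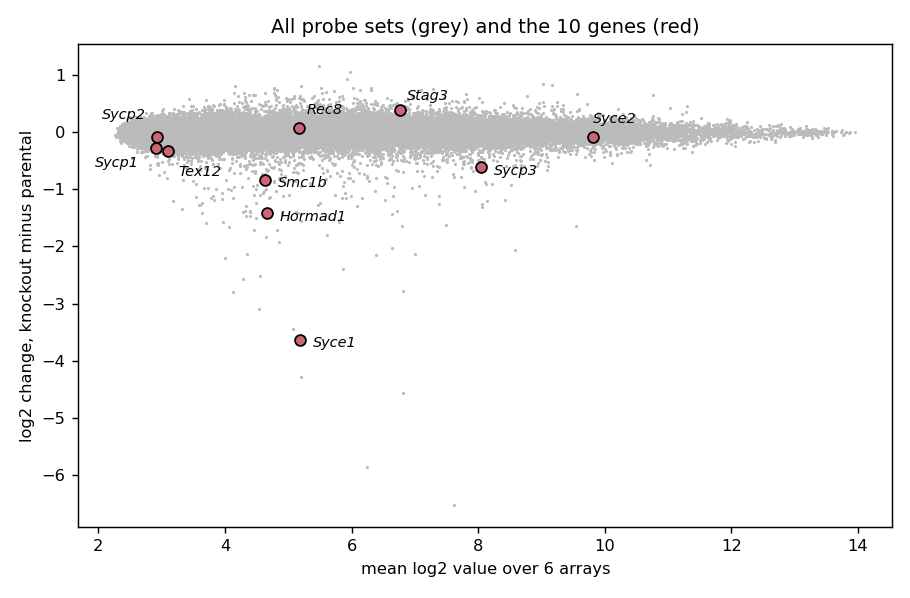
Mean log2 value over the 6 arrays (horizontal axis) against the log2 change, knockout minus parental (vertical axis), for all 45037 probe sets in grey and the 10 genes in red. Syce1, Hormad1, Smc1b and Sycp3 lie below the grey band, and Stag3, Rec8 and Syce2 lie within it.

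The arrays within a group did not deviate alike for all 10 genes. Knockout replicate 2 was the highest knockout array for 8 of the 10, against 36.8% of all probe sets. It read 7.98 for Sycp3, 4.46 for Hormad1, 4.56 for Smc1b and 7.42 for Stag3, each above the other knockout arrays. Parental replicate 1 was the lowest parental array, and knockout replicate 1 the lowest knockout array, for 7 of the 10 each. The share over all probe sets was not computed for these lowest arrays, so whether these counts are unusual is not known. The counts also include Sycp1, Sycp2 and Tex12, which were below background on every array. Knockout replicate 2 also had the lowest feeder marker mean of the knockout arrays, 11.41 against 11.51 and 11.53, while its ES cell marker mean was 10.84 against 10.85 and 10.87. The part of these values in the spread of the members was not tested.

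Without knockout replicate 2, 4 of the 10 genes passed: Syce1, Hormad1 (-1.67, adjusted p = 0.0334, limma), Smc1b (-0.998, adjusted p = 0.0400) and Sycp3 (-0.73, adjusted p = 0.0481). The share over the whole table was then 0.249%. Leaving out any other array left Syce1 as the only call among them, and the adjusted p of Hormad1, Smc1b and Sycp3 then ran up to 0.238, 0.329 and 0.306. Each array was left out in turn, and the count of 4 describes how far 1 array sets the result.

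**Figure D4:**
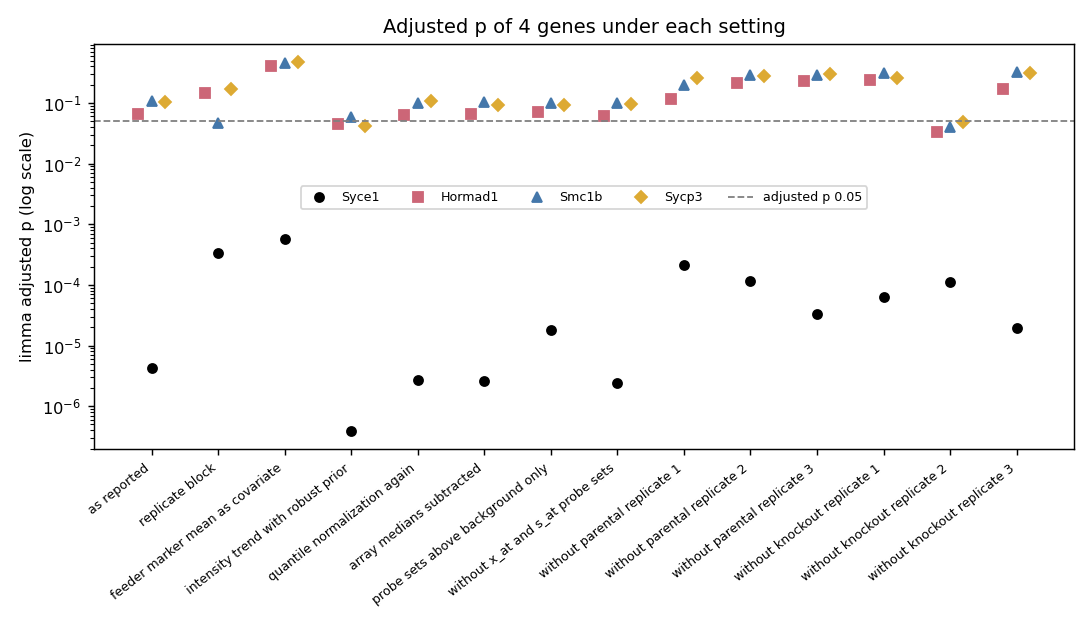
Limma's adjusted p on a log scale (vertical axis) for Syce1, Hormad1, Smc1b and Sycp3 under the reported setting and each alternative (horizontal axis), with a dashed line at 0.05. Syce1 stays under the line throughout, and the other 3 genes lie under it together only without knockout replicate 2.

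The remaining genes of meiosis were taken from lists of its other steps. Of 46 probe sets of 33 genes, 2 passed as lower, 0 as higher and 44 did not pass. Over all probe sets 0.333% passed as lower. The median change of the 46 was -0.06. Only 27 of the 46 had a group mean above background, and the rest could hardly show a fall. Both calls came from Dazl, an RNA-binding protein that licenses germ cells for meiosis. Dazl read 5.32, 5.61 and 5.32 in parental and 3.43, 3.11 and 3.30 in knockout arrays on 1419542_at, where it was at least 3.08-fold lower (adjusted p = 0.000155, limma). On 1449502_at it read 4.96, 4.82 and 5.19 against 3.52, 3.64 and 3.60, at least 2.29-fold lower (adjusted p = 0.000946). In the same list, Ythdc2, a partner in meiotic entry, gave -0.27 (adjusted p = 0.416), and Stra8, which drives meiotic entry, gave -0.22 (adjusted p = 0.639). The Stra8 group means, 4.05 and 3.83, lay close to background.

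In the recombination list 0 of 23 probe sets passed (limma), with 2 lower and 2 higher at an unadjusted p under 0.05. Both lower ones were of Rec114. The higher ones were Msh5 on 1449537_at (0.30, adjusted p = 0.189) and Mlh3 on 1426052_at (0.29, adjusted p = 0.302), also without overlap. On 1430771_a_at, Msh5 gave 0.10 (adjusted p = 0.817). Rec114, a cofactor of double-strand break formation named here after its values were seen, read 6.11, 6.04 and 6.21 in parental and 4.49, 5.40 and 4.76 in knockout arrays on 1429203_at. The groups did not overlap, and the change of -1.24 just missed the threshold (adjusted p = 0.0545). On 1441957_x_at, with both group means below background, it was -0.33 (adjusted p = 0.282). As in Hormad1 and Smc1b, the highest knockout array on 1429203_at was replicate 2, without which this probe set passed (-1.50, adjusted p = 0.00377). Trip13, an ATPase that acts on HORMAD proteins, gave -0.03 and Hsf2bp, a meiotic recombination factor, -0.01 on their highest probe sets. For telomere attachment 0 of 6 probe sets passed and 1 was lower at an unadjusted p under 0.05. Sun1, which ties telomeres to the nuclear envelope, gave -0.03 and Terb2, part of the telomere adaptor, -0.48 (adjusted p = 0.142). All Terb2 knockout values were below background. Among other synaptonemal complex genes 0 of 8 probe sets passed. At an unadjusted p under 0.05, 3 probe sets were lower: 1431393_at and 1431896_at of Six6os1, and 1419729_at of Tex11. Tex11 was below background on every array. Ccnb1ip1, a crossover factor, gave -0.17. Of the other meiotic cohesin genes 0 of 2 passed and 0 had an unadjusted p under 0.05, with Sgo2a, a protector of centromeric cohesin, at 0.07 and Meikin, a kinetochore protein of the first meiotic division, at -0.08. Meikin was below background on every array.

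**Figure D5:**
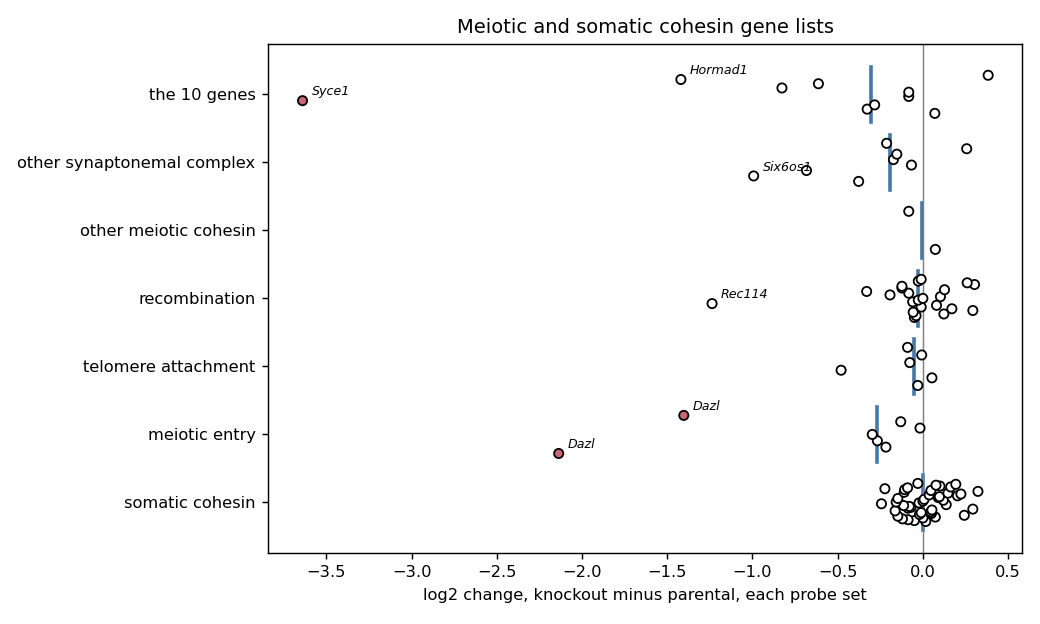
Log2 change, knockout minus parental (horizontal axis), of each probe set of the 10 genes, of the other meiotic lists and of somatic cohesin (vertical axis), with list medians as blue bars. Filled points have an adjusted p under 0.05. Syce1 and both probe sets of Dazl are filled, and the 44 somatic cohesin points lie between -0.24 and 0.32.

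The genes most like Syce1 over the 6 arrays were sought among 18183 other genes, each by its probe set with the highest mean. The measure was the root mean square difference after subtraction of the parental mean. Mael, a gene of the piRNA pathway, was nearest at 0.25, with 6.56, 6.84 and 6.96 in parental and 3.15, 3.61 and 3.28 in knockout arrays (at least 7.96-fold lower). Usp17la, a deubiquitinase gene (0.47), Gm20767 (0.56), AF067061 (0.70) and Car4, a carbonic anhydrase gene (0.88), came next. With 2 groups, this measure mainly finds genes with a difference of similar size.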

How the data were processed

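Total RNA of 6 samples, 3 per cell line, was hybridised to Affymetrix arrays. The authors deposited 1 table of log2 values made with RMA, per the submitters' processing notes; its software, version and settings are not stated there. The log2 scale is inferred from the range, 2.12 to 13.98 (array medians 4.21 to 4.25). RMA equalises the arrays, so a shift of most transcripts would not be visible. Arrays correlated at 0.994 to 0.997, and no 2 were identical.

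After removal of 64 control probe sets, 45037 were compared in R 4.3.3 with limma 3.58.1 (lmFit, then eBayes; a two-sided test without covariates). P-values were adjusted over all of them by Benjamini-Hochberg, with a threshold of 0.05. Genes come from the platform annotation; list members were matched by gene ID to RefSeq. The number of arrays limits precision. The labels number the replicates but do not call them separate cultures, so p-values cover a spread that may be technical. The procedure was tested on simulated data. Members, lists, motifs and settings were chosen with earlier results of these data known. Every probe set of every member is given; from the other lists, called genes or else the 2 with the highest mean are named, and others were chosen after their values were seen. Alternatives are the replicate block, a feeder covariate, an intensity trend with robust prior, quantile normalization, median centring, filters and leaving out each array.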

Additional observations from a re-analysis of the deposited data

How the results depend on the processing

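Syce1 passed under all 13 alternatives and both Dazl probe sets did too. The single call among the 10 genes became 2 with the replicate block (Smc1b added, adjusted p = 0.0474), 3 with an intensity trend and robust prior (Hormad1, 0.0448, and Sycp3, 0.0413, added) and 1 to 4 without 1 array. Rec8 changed sign with the feeder marker mean as a covariate (-0.10, adjusted p = 0.824), and its sign is thus not settled; no other member changed sign under any alternative. Rec114 passed with array medians subtracted (0.0488), without x_at and s_at probe sets (0.0491) and with the intensity trend (0.0214). Over the whole table, 181 calls became 88 with the replicate block, 36 with the feeder covariate, 312 with the intensity trend and 70 to 112 without 1 array. With the feeder covariate, Hormad1 gave -1.20 (adjusted p = 0.403), Smc1b -0.71 (0.455) and Sycp3 -0.46 (0.466); the cause was not tested. The numbering of replicates gave no pairing: deviations from group means correlated at 0.112, -0.364 and -0.287 between arrays of equal number, and other pairs correlated more closely (up to 0.379). Sycp1, Sycp2 and Tex12 were below background on all arrays, which limits what their values show, and they drop out where only probe sets above background are tested.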
